A study of Mus musculus with 41 samples.

Results

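The RNA of 3 androgenetic haploid embryonic stem cell (AG-haESC) lines was compared by RNA-seq before and after a change of medium: each line in 2i/L and the same line 5 passages after transfer to SF/a2i/L. The members were the 3 libraries labelled as transferred and the 3 libraries of the same lines kept in 2i/L, 6 of the 13 RNA-seq libraries and 6 of the 41 samples of the series, paired by line name. AG-haESCs are mouse cells that carry 1 set of chromosomes, all from sperm. All lines were of the C57BL/6 strain. Line 2i-14 was wild-type, and its 2i/L library was taken at passage 50. Line 2i-O48 carried deletions of H19-DMR and IG-DMR, the paternally methylated imprint control regions of the H19-Igf2 and Dlk1-Dio3 clusters, in both media. Line 2i-O48-TKO carried both deletions and also a deletion of the gene H19, in both media. The labels gave no passage number for 2i-O48 and 2i-O48-TKO, and each line in each medium was 1 library. 2i/L held 15% FBS, 1000 U/ml LIF, 1 μM PD0325901, an inhibitor of MEK, and 3 μM CHIR99021, an inhibitor of GSK3. SF/a2i/L held no serum. N2 and B27 supplements took its place, LIF and CHIR99021 were kept at 1000 U/ml and 3 μM, and CGP77675, an inhibitor of Src, stood in for PD0325901 at 1.5 μM. Loss of serum, loss of MEK inhibition, gain of Src inhibition and change of basal medium therefore came together and cannot be told apart.

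Mouse embryonic stem cells kept with LIF and inhibitors of MEK and GSK3 hold a naive state, in which factors such as Nanog, Prdm14 and Zfp42 are on and differentiation genes are low. MEK relays fibroblast growth factor signals to ERK, and ERK switches on its own feedback inhibitors of the Dusp and Spry families. Naive cells make energy both by glycolysis, which turns glucose into lactate, and by the mitochondrial respiratory chain. ATF4 is the transcription factor of the amino acid and endoplasmic reticulum stress response, and Ddit3 (CHOP) and Nupr1 are among its best known targets.

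Levels are FPKM, fragments per kilobase of transcript scaled to the mapped fragments of the library, and changes are differences of log2(FPKM + 1), switched minus 2i/L, a scale that understates changes of low genes. Throughout, 3 values in a row give the wild-type line first, then 2i-O48, then 2i-O48-TKO. The steps between the lowest FPKM values put the depth of the 6 libraries at 18.7 to 22 M fragments, at which 3 fragments on a transcript of 1 kb equal 0.188 to 0.222 FPKM. The deleted gene H19 was listed at 0, 0 and 0 FPKM in 2i/L and 0.0982, 0.125 and 0.0686 FPKM after the switch, under that level in every library, so it could not check the genotype labels. In bulk RNA, fewer cells of a type and less RNA per cell cannot be told apart. Embryonic stem cell markers were on in all 6 libraries, with all 8 of 8 at 1 FPKM or more. Of 16 fibroblast markers, which would report the embryonic fibroblast feeders, 1 to 2 reached 1 FPKM in each of the 6 libraries, and their summed level was 4.77 to 9.82 FPKM in 2i/L and 11 to 15.5 FPKM after the switch, most of it Fstl1. Their part in the results was not tested. Col1a2, Col3a1, Col6a1, Postn and Fap were at 0 in all 3 libraries in 2i/L and at most 0.306 FPKM after the switch. They do not bound the other markers: Dcn, Lum and Thy1 reached 0.873, 0.717 and 1.5 FPKM after the switch. Col1a1 and Loxl1 were lower after it in every line. In the switched 2i-14 library microRNA, snoRNA and other small RNA loci held 67.2% of the summed FPKM, against 0.103% to 0.303% in the other 5 libraries. Without them the sum of that library was 704689 against 650400 to 709807 in the others.

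Of 9759 genes tested, 217 were called higher after the switch (2.22% of genes tested) and 455 lower (4.66%; limma with line as a block, adjusted p below 0.05). All 672 moved the same way in all 3 pairs, against 19.4% of genes tested that were higher and 29.4% that were lower in all 3 pairs. Calling favours genes whose pairs agree, so this agreement is no separate support for the calls. Genes of the interferon response made up 18 of the 217 higher calls and 0 of the 455 lower calls, with 40 tested. They are set apart here, which left 199 genes higher and 455 lower. A change of at least 1 on the log2 scale in each of the 3 pairs was seen for 93 higher genes (0.953%) and 201 lower genes (2.06%), 77 and 201 of them outside the interferon list. All 3 switched libraries lay above all 5 libraries in 2i/L, the 2 earlier passages of 2i-14 included, for 9.21% of genes tested and below them for 15.6%. Of the called genes 85.7% of the higher ones and 81.1% of the lower ones did so. Most of these libraries also made the calls, so the shares are raised by the selection. A lack of overlap of called genes, where given below, is therefore no separate support for their calls. The median change over all genes was -0.094. Centring every library on its median shifted changes by 0.17 and turned the calls to 386 higher and 314 lower. The excess of lower calls was therefore not kept under that scaling. The 314 genes were all among the 455. Without the filter on low FPKM limma called 0 higher and 0 lower of 18837 genes (smallest adjusted p = 0.143), with 1150 higher and 2056 lower at an unadjusted p under 0.05.

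**Figure D1:**
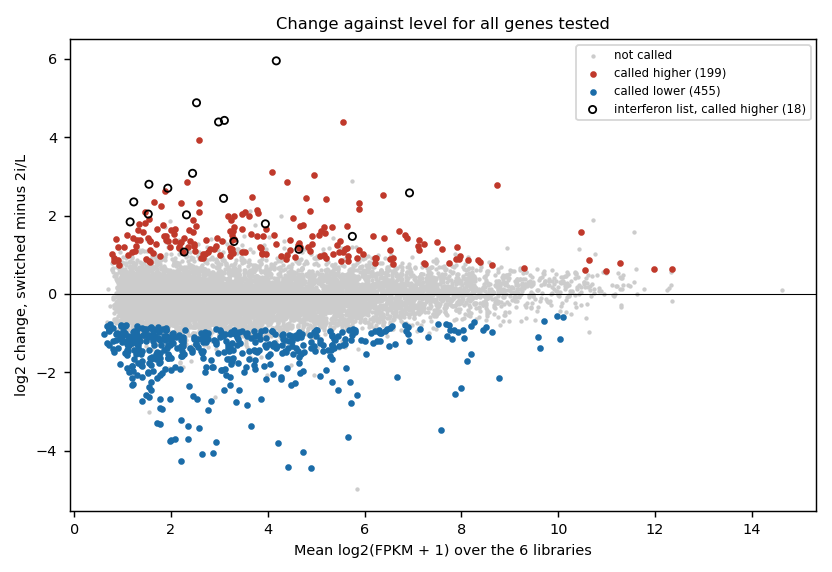
Change against level for the 9759 genes tested: the horizontal axis is the mean log2(FPKM + 1) over the 6 libraries, the vertical axis the log2 change, switched minus 2i/L, and each point a gene. The 199 higher genes outside the interferon list (red) and the 455 lower genes (blue) lie at both low and high levels, and 18 interferon genes are drawn as open circles.

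The 3 pairs are 3 cell lines, 2 of them sharing deletions, so p-values measure the spread of the change between these libraries. With 3 pairs an exact two-sided sign-flip test of 1 gene could not go below 0.25. The pairs were not equally alike. The median change was 0.011 in the 2i-14 pair, -0.17 in that of 2i-O48 and -0.1 in that of 2i-O48-TKO. At least 1 on the log2 scale separated 439 higher and 627 lower genes in the first pair, 492 and 1185 in the second and 298 and 626 in the third. Across genes, which are not independent replicates, the change in 2i-14 had a Pearson r of 0.7 with that in 2i-O48-TKO and 0.4 with that in 2i-O48, and the 2 DMR-deleted lines had 0.56 with each other. Leaving out the 2i-O48 pair raised the calls to 555 higher and 906 lower, and leaving out the 2i-O48-TKO pair cut them to 112 and 199.

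Among called genes outside the interferon list, the largest rise was that of Calca, at chr7:121774994-121779871 (mm9), which encodes calcitonin and calcitonin gene-related peptide. It stood at 8.03, 7.92 and 12.4 FPKM in 2i/L and 199, 215 and 228 FPKM after the switch (log2 change 4.39 ± 0.19 (SE), adjusted p = 0.00196), so the groups were far apart and the 3 lines nearly equal within each. Gstt2, a glutathione transferase, went from 4.33, 3.21 and 7.6 FPKM to 63.1, 36.3 and 52.4 FPKM (log2 change 3.12 ± 0.24 (SE), adjusted p = 0.00428). Phlda2, an imprinted growth regulator of the placenta, went from 12, 6.77 and 11.7 FPKM to 82.2, 96.4 and 86.9 FPKM (log2 change 3.04 ± 0.25 (SE), adjusted p = 0.00474). Both showed the rise in every line with no overlap. Bmp4, a ligand of the BMP pathway, was uneven among lines: 0.302, 3.66 and 0.056 FPKM in 2i/L and 26.8, 8.32 and 8.51 FPKM after the switch (log2 change 2.86 ± 0.59 (SE), adjusted p = 0.0423), with 2i-O48 already on in 2i/L. Gngt2, a G protein gamma subunit, rose from 9.16, 3.29 and 10 FPKM to 47.9, 62.5 and 58.2 FPKM, and Mia, a secreted protein first found in melanoma cells, from 18.2, 9.04 and 20.1 FPKM to 80.2, 67.4 and 110 FPKM. The remaining genes of the 15 largest rises were Nupr1 and Ddit3, described with the ATF4 genes, and Ifi27l2a, Ly6g5c, Ubap1l, Flywch2, S100a4, Vsig2 and Calml4, with log2 changes of 2.31 to 3.92. Ifi27l2a is named for its induction by interferon although it was not on the interferon list, and it rose from 0.258, 0.243 and 1.28 FPKM to 24.7, 44.5 and 9.5 FPKM. S100a4 measured 0, 1.24 and 0.217 FPKM in 2i/L and 3.64, 17.7 and 3.17 FPKM after the switch, but 524 FPKM in 2i-14 at passage 39 in 2i/L, a library in which 11 of the 16 fibroblast markers reached 1 FPKM; with that passage as the control the change of S100a4 was -0.66.

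Among called genes the largest fall was that of Calcoco2, an autophagy receptor, which measured 129, 307 and 64.4 FPKM in 2i/L and 2.94, 9.61 and 5.13 FPKM after the switch (log2 change -4.44 ± 0.34 (SE), adjusted p = 0.00396). Glrx, the cytosolic glutaredoxin, measured 53.8, 178 and 95.2 FPKM and 3.48, 1.3 and 8.39 FPKM (log2 change -4.42 ± 0.55 (SE), adjusted p = 0.0126). No line's level after the switch reached that of any line before it for either gene. Obox6, an oocyte-specific homeobox gene, fell from 95.6, 128 and 96.1 FPKM to 2.71, 9.55 and 5.96 FPKM (log2 change -4.04 ± 0.26 (SE), adjusted p = 0.00268). Spic, an Ets factor of red pulp macrophages that embryonic stem cells in MEK and GSK3 inhibitors also express, fell from 56, 86.3 and 65.3 FPKM to 2.29, 4.92 and 5.1 FPKM (log2 change -3.81 ± 0.22 (SE), adjusted p = 0.00196). Crxos, a homeobox gene of early embryos and stem cells, fell from 17, 30.9 and 38.6 FPKM to 0.815, 0.621 and 1.96 FPKM (log2 change -3.78 ± 0.25 (SE), adjusted p = 0.00268). Cd3g, best known as a chain of the T cell receptor complex, fell from 16.7, 52.3 and 26.8 FPKM to 0.249, 1.5 and 0.849 FPKM (log2 change -4.05 ± 0.22 (SE), adjusted p = 0.00196). Rpl39l, a ribosomal protein paralog of male germ cells, fell from 85.2, 277 and 241 FPKM to 3.99, 13.6 and 39 FPKM, with 2i-O48-TKO the highest line after the switch. Cidea, a lipid droplet protein, fell from 40.2, 42.7 and 36.1 FPKM to 0.313, 10.6 and 2.92 FPKM, with 2i-O48 the least reduced. Aspa, which splits N-acetylaspartate, and Ceacam10 fell by 3.43 and 3.36 on the log2 scale. Pramel6, Pramel7, Rhox2a, Crygc and Crygd complete the 15 and are given with their families.

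In the 5 libraries of lines TSa2i-14 and TSa2i-C57, labelled TSa2i/L and kept with CGP77675 and CHIR99021, 10 of the 15 most raised and 8 of the 15 most lowered genes also lay apart from all 5 libraries in 2i/L on the same side; in the switched libraries 14 and 12 did. Calca stood at 64.9 to 126 FPKM in TSa2i/L, between the 2i/L and switched levels. Bmp4 did not stand apart there, at 0.984 to 5.29 FPKM. The comparison shares the 2i/L libraries with the one above, in which the 15 genes of each direction were picked for the size of their change. The share of all genes tested that lay apart in TSa2i/L was not computed. The counts therefore cannot be read as a measure of likeness between the cultures.

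**Figure D2:**
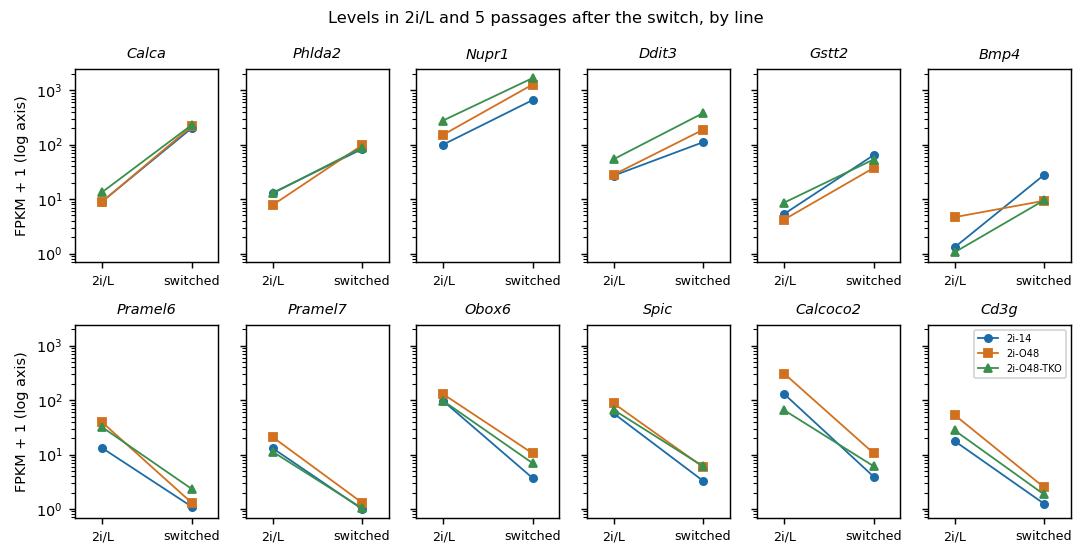
FPKM + 1 (log axis) of 12 genes in 2i/L and 5 passages after the switch, with 1 line drawn for each cell line. The 6 genes in the upper row end higher in all 3 lines and the 6 in the lower row end lower. Bmp4 in 2i-O48 starts above the other lines at 3.66 FPKM.

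Across 40 pathway and cell type lists with at least 5 genes tested, the interferon list left out, the median change lay below that of all genes in all 3 pairs for 14 lists and above it in all 3 pairs for 7, and for 19 the pairs disagreed. Of single genes tested, 29.4% were lower and 19.4% higher in all 3 pairs, counted from 0. Some margins were close to 0, such as -0.0028 for endoplasmic reticulum chaperones in 2i-O48 and 0.0046 for ERK targets in 2i-O48-TKO. The lists that lay lower included glycolysis, G1-S and replication, heat shock, hypoxia targets and fatty acid metabolism, and those that lay higher included ATF4 targets, the respiratory chain and imprinted genes. Lists were described by counts and medians, with no test of a list. Over all genes tested 2.22% were called higher and 4.66% lower, and each list's count of calls is to be read against these shares.

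**Figure D3:**
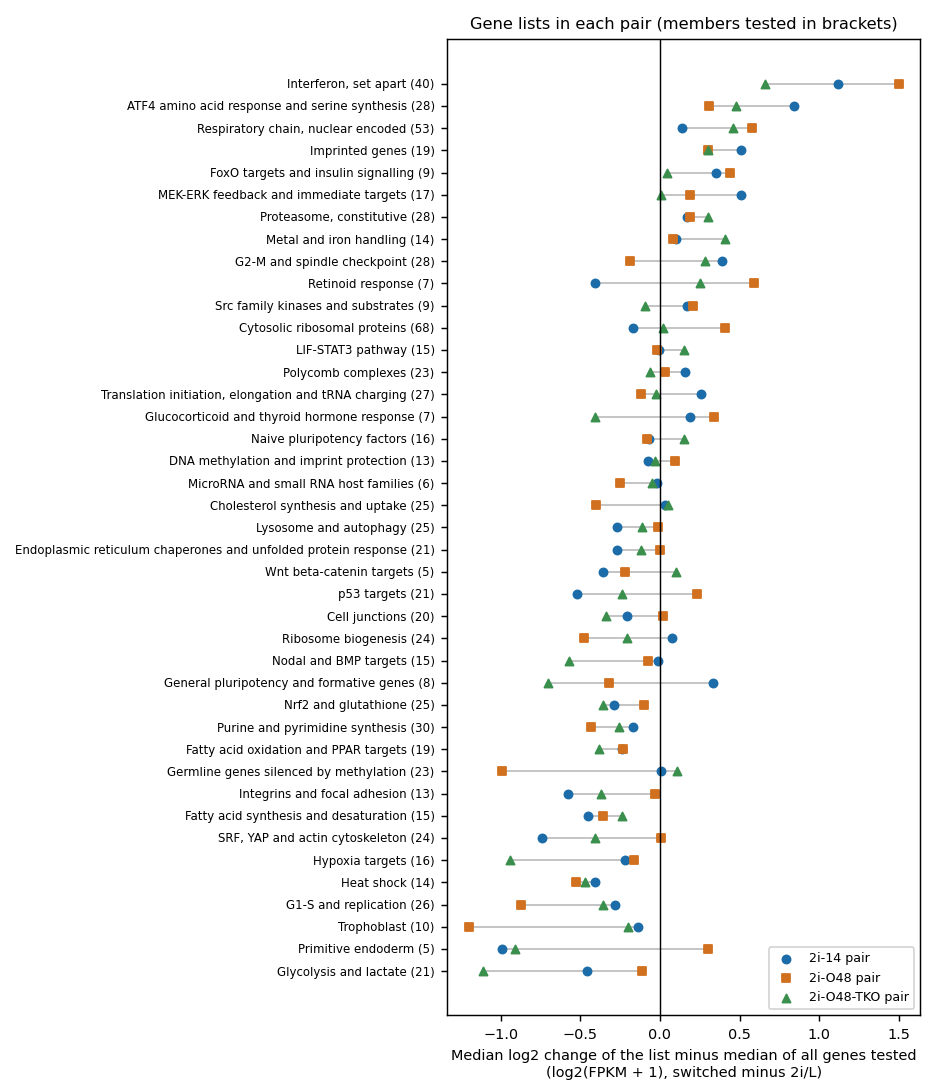
Median log2 change of each list minus the median of all genes tested, in each pair (circles 2i-14, squares 2i-O48, triangles 2i-O48-TKO; members tested in brackets; lists with at least 5 members tested). Heat shock lies at -0.41, -0.53 and -0.47 in the 3 pairs, while the p53 target list spans 0 (-0.52, 0.23 and -0.24).

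Of 21 genes of glycolysis and lactate handling tested, 7 were called lower (33.3%) and 0 higher, and 16 were lower in all 3 pairs; the list's median change was -0.71 against -0.094 for all genes. Slc2a1, the glucose transporter GLUT1, fell most, from 83.7, 254 and 451 FPKM to 30.2, 73.3 and 49.9 FPKM (log2 change -2.12 ± 0.33 (SE), adjusted p = 0.0216). Ldha, which makes lactate from pyruvate, fell from 1130, 931 and 1970 FPKM to 653, 401 and 436 FPKM (log2 change -1.39 ± 0.26 (SE), adjusted p = 0.0354). Gpi1, the enzyme of the isomerase step, fell from 54, 58 and 121 FPKM to 26.4, 28.8 and 32 FPKM (log2 change -1.29 ± 0.24 (SE), adjusted p = 0.034). Pfkfb3, which makes the activator of phosphofructokinase, went from 1.93, 1.7 and 6.45 FPKM to 0.371, 0.576 and 1.18 FPKM (log2 change -1.21 ± 0.24 (SE), adjusted p = 0.0374). For these 4 genes no switched library reached any library in 2i/L, and the switched levels of the 3 lines were closer to each other than the 2i/L levels, which were highest in 2i-O48-TKO. Aldoa, an aldolase, fell from 1580, 1050 and 2250 FPKM to 821, 679 and 630 FPKM (log2 change -1.14 ± 0.24 (SE), adjusted p = 0.0434). Pkm and Tpi1, the last kinase and the triose isomerase of the pathway, fell by 1.13 and 0.96 on the log2 scale (adjusted p = 0.0461 and 0.0487). Gapdh, often used as a reference gene, measured 375, 302 and 520 FPKM and 283, 248 and 224 FPKM and missed the threshold (log2 change -0.63, adjusted p = 0.135). The list's shift was largest in 2i-O48-TKO, at -1.11 relative to all genes, and smallest in 2i-O48, at -0.11. The gene that was higher in all 3 pairs was Ldhb, chosen after its values were seen, which favours the step from lactate to pyruvate, at 374, 148 and 415 FPKM in 2i/L and 407, 401 and 783 FPKM after the switch (adjusted p = 0.11). With median centring 3 of the 7 kept their calls, Slc2a1, Gpi1 and Ldha.

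**Figure D4:**
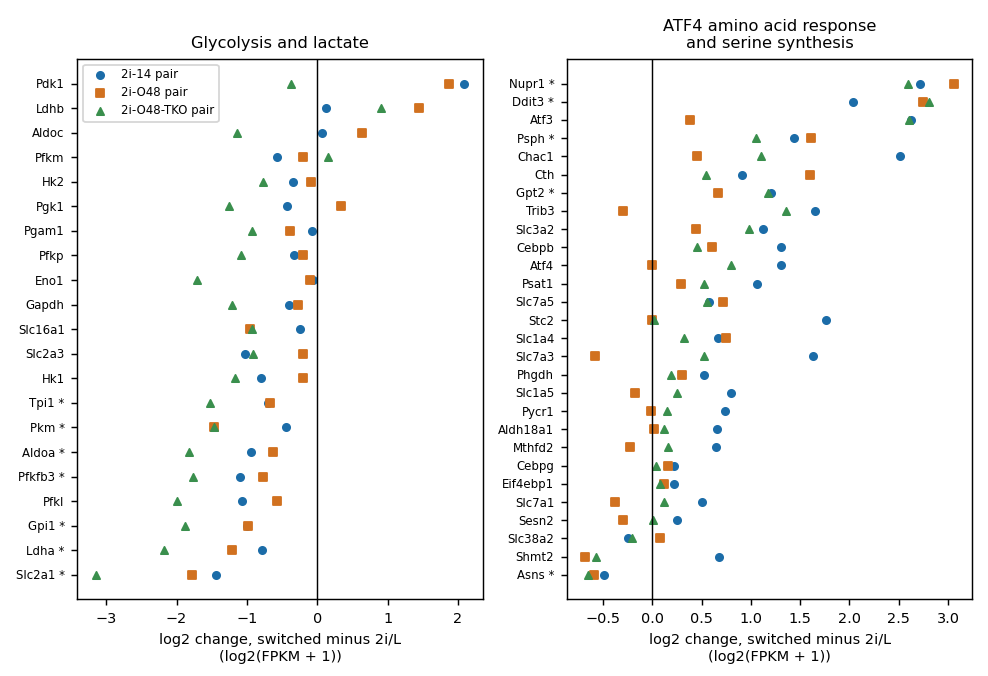
Log2 change in each pair for the 21 glycolysis genes (left) and the 28 ATF4 genes (right) tested, ordered by mean change; an asterisk marks genes called. Most glycolysis genes lie left of 0 with 2i-O48-TKO often farthest left, and most ATF4 genes lie right of 0, with Nupr1 and Ddit3 between 2.04 and 3.06 in all 3 pairs.

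The E-box CACGTG, which Myc and hypoxia-inducible factors can bind, was searched on both strands of RefSeq promoters (GRCm38.p6, from 250 bases before to 50 after each gene's start). It was found for 4 of the 20 glycolysis genes with a promoter in the table (20%), 2 of them among the 7 called lower, against 8.09% of 27025 genes. Both Ldha matches and that of Pfkfb3 are shown, since these are the called glycolysis genes that hold it, with the E-box in capitals and the gene's own strand read 5′ to 3′. The first Ldha window is chr7:46845634-46845689 and the second chr7:46845731-46845786 on the plus strand, and that of Pfkfb3 is chr2:11502113-11502168 on the minus strand.
Ldha, first: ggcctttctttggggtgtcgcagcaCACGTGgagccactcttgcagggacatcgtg
Ldha, second: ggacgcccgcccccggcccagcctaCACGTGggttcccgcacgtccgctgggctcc
Pfkfb3: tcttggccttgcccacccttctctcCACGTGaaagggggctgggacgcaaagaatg
A match is a description of letters, not of binding. The CCAAT box, a sterol regulatory element and the C/EBP-ATF element were searched too, also in other lists, and most of those counts are not given here. E-box matches also lay before called genes of other lists, such as Hsph1, Plagl1 and Nupr1.

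Hypoxia targets overlap this pathway. Of 16 tested, 2 were called lower (12.5%), 0 higher and 8 were lower in all 3 pairs, with a median change of -0.74. Relative to all genes the list lay at -0.22, -0.16 and -0.94 in the 3 pairs, so its shift was mostly that of 2i-O48-TKO. Ankrd37 fell from 33, 26.2 and 72.2 FPKM to 8.88, 7.89 and 7.59 FPKM (log2 change -2.16 ± 0.32 (SE), adjusted p = 0.0196). Kdm3a, a histone H3K9 demethylase that responds to hypoxia, fell from 10.4, 16 and 10.7 FPKM to 4.96, 5.93 and 5.74 FPKM (log2 change -1.01 ± 0.21 (SE), adjusted p = 0.0447), a call lost with median centring.

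Of 19 genes of fatty acid oxidation and PPAR targets tested, 3 were called lower (15.8%), 0 higher and 9 were lower in all 3 pairs (median -0.41). Acaa2, the mitochondrial thiolase, fell from 119, 94 and 91 FPKM to 15.1, 13.3 and 27.5 FPKM (log2 change -2.44 ± 0.28 (SE), adjusted p = 0.0106). Slc25a20, the carnitine carrier of the inner mitochondrial membrane, fell from 69.1, 143 and 85.2 FPKM to 19.1, 34 and 22.5 FPKM (log2 change -1.9 ± 0.18 (SE), adjusted p = 0.00688). Acadm, the medium-chain dehydrogenase, fell from 110, 121 and 122 FPKM to 70, 54.1 and 60.1 FPKM (log2 change -0.94 ± 0.19 (SE), adjusted p = 0.0392). These 3 genes also fell after median centring. They stood below all 5 libraries in 2i/L, as did 81.1% of all genes called lower. In fatty acid synthesis 1 of 15 genes was called: Acss2, which makes acetyl-CoA from acetate, fell from 3.24, 3.89 and 4.03 FPKM to 0.665, 1.16 and 1.36 FPKM (log2 change -1.21 ± 0.18 (SE), adjusted p = 0.0203). Scd2, a desaturase, and Slc25a1, the citrate carrier, averaged 34.9 ± 9.37 FPKM in 2i/L and 43.2 ± 12.8 FPKM after the switch for the first and 60.1 ± 19.2 FPKM in 2i/L and 37.9 ± 9.84 FPKM after the switch for the second (here and for other averages ± SD, n = 3). None of 25 cholesterol genes was called by limma (2 lower at an unadjusted p under 0.05), and 12 were lower in all 3 pairs. Msmo1 and Ebp, the most abundant, averaged 155 ± 7.6 FPKM in 2i/L and 202 ± 24.7 FPKM after the switch for the first and 137 ± 43.8 FPKM in 2i/L and 146 ± 10.9 FPKM after the switch for the second.

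Of 26 genes of the G1-S step and replication tested, 3 were called lower (11.5%), 0 higher and 17 were lower in all 3 pairs, with a median of -0.64. Ccnd3, a D-type cyclin, fell from 98.2, 218 and 136 FPKM to 59, 62.9 and 46.7 FPKM (log2 change -1.34 ± 0.24 (SE), adjusted p = 0.0311). E2f1, the transcription factor that turns on S phase genes, fell from 5.06, 7.14 and 7.88 FPKM to 1.77, 2.29 and 1.99 FPKM (log2 change -1.34 ± 0.2 (SE), adjusted p = 0.0203). Mcm4, a subunit of the replicative helicase, went from 66.2, 91.8 and 70.5 FPKM to 37.6, 41.3 and 39.7 FPKM (log2 change -0.91 ± 0.18 (SE), adjusted p = 0.0394). All 3 kept their calls with median centring, and the switched levels did not overlap those in 2i/L. Of 30 purine and pyrimidine synthesis genes tested, 4 were called lower (13.3%), 0 higher and 16 were lower in all 3 pairs (median -0.4). Dctd, a deaminase that leads to thymidylate, fell from 27.7, 33.3 and 28 FPKM to 13.1, 12.3 and 12.2 FPKM (log2 change -1.18 ± 0.2 (SE), adjusted p = 0.0254). Dut, which keeps uracil out of DNA, went from 350, 304 and 360 FPKM to 189, 181 and 151 FPKM (log2 change -0.96 ± 0.17 (SE), adjusted p = 0.0302). Impdh1, of guanine nucleotide synthesis, and Rrm2, a subunit of ribonucleotide reductase, fell by 1.14 and 0.71 on the log2 scale (adjusted p = 0.034 and 0.0494). Dctd and Impdh1 kept their calls with median centring and Dut and Rrm2 did not. By contrast 0 of 28 genes of G2-M and the spindle checkpoint were called by limma (1 lower at an unadjusted p under 0.05) and the list's median was 0.046. Birc5 and Ube2c, its most abundant genes, averaged 532 ± 145 FPKM in 2i/L and 681 ± 45.6 FPKM after the switch for the first and 553 ± 133 FPKM in 2i/L and 569 ± 157 FPKM after the switch for the second. Whether the G1-S and G2-M lists differ was not tested.

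**Figure D5:**
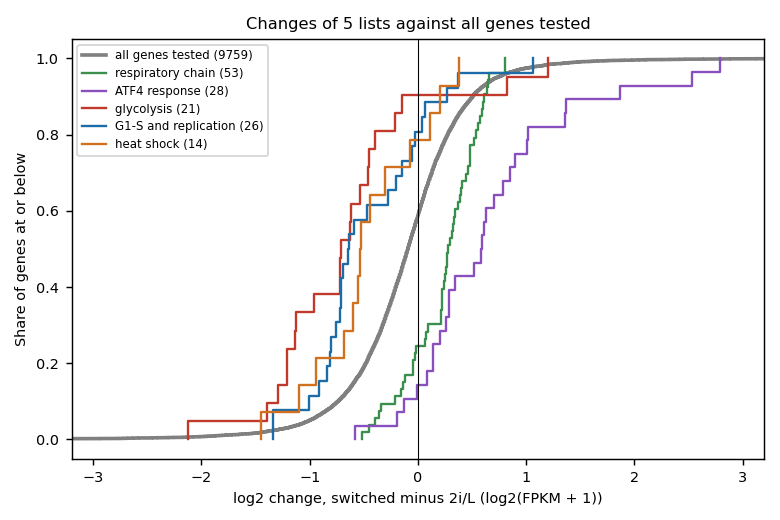
Cumulative share of genes (vertical axis) at or below each log2 change, switched minus 2i/L (horizontal axis), for 5 lists and for all genes tested in grey. At their medians the curves of glycolysis, G1-S and heat shock lie left of the grey curve, at -0.71, -0.64 and -0.53, and those of the respiratory chain and ATF4 response right of it, at 0.28 and 0.59.

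Heat shock proteins fold and refold other proteins. Of 14 heat shock genes tested, 4 were called lower (28.6%), 0 higher and 9 were lower in all 3 pairs, with a median of -0.53. Hspa8, the constitutive HSP70, fell from 1230, 1120 and 1020 FPKM to 626, 523 and 439 FPKM (log2 change -1.1 ± 0.14 (SE), adjusted p = 0.0126). Hsph1, its exchange factor, fell from 67.4, 62.7 and 44 FPKM to 25.6, 15.9 and 20.4 FPKM (log2 change -1.45 ± 0.23 (SE), adjusted p = 0.0211). Dnajb1, an HSP40, went from 53, 53.3 and 52.5 FPKM to 28.1, 29.4 and 24.3 FPKM (log2 change -0.94 ± 0.18 (SE), adjusted p = 0.0374). Hsp90ab1 fell by 0.68 on the log2 scale (adjusted p = 0.046). Hspa8 and Hsph1 kept their calls with median centring. Hsp90aa1 and Serpinh1, chosen after their values were seen, were higher in all 3 pairs, with log2 changes of 0.2 and 0.38 and neither called. Of 21 chaperones and unfolded protein genes of the endoplasmic reticulum 0 were called by limma, with 3 higher and 6 lower at an unadjusted p under 0.05. Hspa5 (BiP) and Hsp90b1 averaged 259 ± 37.1 FPKM in 2i/L and 208 ± 27.8 FPKM after the switch for the first and 222 ± 34.5 FPKM in 2i/L and 204 ± 1.72 FPKM after the switch for the second.

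Of 24 genes tested of the actin cytoskeleton and of SRF and YAP control, 5 were called lower (20.8%), 0 higher and 14 were lower in all 3 pairs (median -0.46), although in the 2i-O48 pair the list lay level with all genes (0.0034 above them). Cyr61, a matrix protein and the classic YAP target, fell from 19.2, 22.5 and 11.5 FPKM to 2, 4.25 and 3.93 FPKM (log2 change -2.08 ± 0.3 (SE), adjusted p = 0.0181). Cnn2 and Cnn3, calponins that bind actin, fell from 25, 17.7 and 19.8 FPKM to 4.68, 8.22 and 5.22 FPKM and from 544, 419 and 481 FPKM to 249, 253 and 261 FPKM (adjusted p = 0.0246 and 0.0282). Myl9, a myosin light chain, and Fhl2, a LIM domain cofactor, were low genes that fell from 2.89, 3.81 and 2.39 FPKM to 0.173, 1.45 and 0.262 FPKM and from 1.34, 2.76 and 1.61 FPKM to 0.251, 0 and 0 FPKM (adjusted p = 0.0203 and 0.0237). Cnn3 lost its call with median centring. Myl9 and Fhl2 stood at 50.5 and 7.66 FPKM in 2i-14 at passage 39, the library with the fibroblast markers. Of 13 integrin and focal adhesion genes 1 was called lower, Bcar1 (p130Cas), a scaffold that Src phosphorylates, from 3.62, 3.83 and 6.35 FPKM to 1.12, 1.4 and 1.82 FPKM (log2 change -1.17 ± 0.19 (SE), adjusted p = 0.0249). Fn1 and Ilk averaged 30.9 ± 14.6 FPKM in 2i/L and 26.3 ± 0.947 FPKM after the switch for the first and 27 ± 13.8 FPKM in 2i/L and 17.3 ± 3.55 FPKM after the switch for the second. Of 20 junction genes 1 was called lower, F11r (JAM-A), from 25.3, 32.3 and 24.2 FPKM to 14.4, 14 and 10.8 FPKM (log2 change -1.01 ± 0.2 (SE), adjusted p = 0.0379). That count is near the 4.66% of all genes tested that were called lower. Epcam averaged 151 ± 24.6 FPKM in 2i/L and 142 ± 32.4 FPKM after the switch. Of 9 Src family kinases and substrates 1 was called higher, Dab1, the adaptor of Reelin signalling and a Src substrate, from 4.97, 6.02 and 6.59 FPKM to 28.1, 21.7 and 34.3 FPKM (log2 change 2.06 ± 0.22 (SE), adjusted p = 0.00977), and Cttn (cortactin) averaged 20.9 ± 4.66 FPKM in 2i/L and 12 ± 3.65 FPKM after the switch.

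The glutathione and Nrf2 list moved both ways. Of 25 tested, 2 were called higher (8.0%) and 3 lower (12%), and 12 were lower in all 3 pairs (median -0.36). Gss, glutathione synthetase, fell from 54.9, 40.7 and 51.9 FPKM to 6.63, 10.2 and 10.8 FPKM (log2 change -2.31 ± 0.25 (SE), adjusted p = 0.0099). Nqo1, a quinone reductase, fell from 169, 144 and 193 FPKM to 76.6, 87.6 and 84.7 FPKM (log2 change -1.01 ± 0.18 (SE), adjusted p = 0.0306). Tkt, transketolase of the pentose phosphate pathway, went from 36.1, 39.9 and 57.9 FPKM to 21, 20 and 27.9 FPKM (log2 change -0.91 ± 0.19 (SE), adjusted p = 0.0416). Both lost their calls with median centring. The risers were Gstt2, given above, and Mgst1, a membrane glutathione transferase, from 0.0715, 0.412 and 0.145 FPKM to 1.12, 1.61 and 1.58 FPKM (log2 change 1.01 ± 0.16 (SE), adjusted p = 0.0237). Mgst1 stood at 9.01 FPKM in 2i-14 at passage 39, and its change was -0.061 with that control. Among 17 cytosolic glutathione transferases, a family chosen after its values were seen, Gsta2 fell from 3.76, 3.27 and 3.83 FPKM to 0.162, 0.843 and 0.182 FPKM and Gsto1 from 516, 2360 and 634 FPKM to 177, 245 and 206 FPKM, while Gstt2 was the gene called higher. For metal and iron handling 1 of 14 was called: Ftl1, the ferritin light chain, rose from 4620, 3250 and 4870 FPKM to 6060, 5620 and 8260 FPKM (log2 change 0.65 ± 0.12 (SE), adjusted p = 0.0365), a call lost with median centring. Mt1, a metallothionein, was 1060, 2800 and 1780 FPKM in 2i/L and 8370, 1560 and 10900 FPKM after the switch, with 2i-O48 moving against the other lines.

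Of the Pramel family, expressed in the germline and early embryo, 4 of 10 listed genes were tested, 2 were called lower and all 4 were lower in all 3 pairs. Pramel6, at chr2:87346722-87351029, and its neighbour Pramel7, at chr2:87329244-87337250 (mm9), repress DNA methylation in naive cells by way of Uhrf1. Pramel6 fell from 12.2, 38.3 and 30.9 FPKM to 0.11, 0.308 and 1.35 FPKM (log2 change -4.08 ± 0.3 (SE), adjusted p = 0.00348) and Pramel7 from 12.1, 20 and 10.3 FPKM to 0, 0.307 and 0.0337 FPKM (log2 change -3.72 ± 0.21 (SE), adjusted p = 0.00196). In the TSa2i/L libraries they stood at 1.56 to 6.05 and 0.454 to 4.61 FPKM, above all 3 switched libraries and below all 5 in 2i/L. The Rhox homeobox genes, an X-linked cluster, were grouped after their values were seen: 15 of 30 listed were tested, 10 were called lower, 0 higher and all 15 were lower in all 3 pairs. Rhox2a fell from 4.2, 28 and 18.9 FPKM to 0.0306, 0 and 0.231 FPKM (log2 change -3.74 ± 0.45 (SE), adjusted p = 0.0122) and Rhox13 from 13.3, 13.8 and 14.1 FPKM to 1.92, 0.299 and 2.12 FPKM (log2 change -2.69 ± 0.3 (SE), adjusted p = 0.0105). The summed level of the 30 genes was 95.3, 445 and 226 FPKM in 2i/L and 38.5, 75.7 and 112 FPKM after the switch. In 2i-14 at passages 18 and 39, also in 2i/L, it was 52 and 99.3 FPKM, so the summed levels overlapped between the media. Rhox6 and Rhox9 stood at 5.86 and 5.82 FPKM at passage 18, below all 3 switched libraries. Copies within Rhox2, Rhox4, Pramel, Magea, Saa and the gamma crystallins are near-identical, as Rpl39l is to Rpl39, so how reads were split among them is uncertain.

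Other families were also grouped after their values were seen. Magea5 and Magea8, X-linked cancer-testis genes, fell from 2.32, 9.87 and 16.7 FPKM to 0, 0 and 1.5 FPKM and from 1.22, 8.88 and 12.2 FPKM to 0, 0 and 1.06 FPKM, and both were at 0 after the switch in 2 of the 3 lines. Of 5 gamma crystallins tested, lens proteins, 3 were called lower: Crygc from 16.9, 12.4 and 24.3 FPKM to 0.135, 0.91 and 0.296 FPKM, Crygd from 9.43, 11.5 and 26.3 FPKM to 0.132, 0 and 0.433 FPKM and Cryge from 3.83, 5.6 and 7.77 FPKM to 0.129, 0.803 and 0.283 FPKM. All 3 serum amyloid A genes tested were called lower, with Saa3 from 46.8, 117 and 65.5 FPKM to 8.24, 30.7 and 21.9 FPKM. In 2i-14 at passage 18, also in 2i/L, Saa3 stood at 6.52 FPKM, below all 3 switched libraries. Cd3d, the neighbour of Cd3g, fell from 6.36, 24.1 and 14.2 FPKM to 0.132, 0.462 and 1.16 FPKM. Of 6 beta tubulins tested 4 were called lower, with Tubb6 from 52.6, 121 and 113 FPKM to 22.9, 44.8 and 58.1 FPKM and Tubb3, also the neuroectoderm list's called gene (1 of 3 tested), from 22.3, 32.3 and 26.8 FPKM to 9.94, 8.64 and 6.6 FPKM (log2 change -1.58 ± 0.24 (SE), adjusted p = 0.0196). Of 23 germline genes silenced by methylation 2 were called lower, Rhox13 and Dazl, and 1 higher, Mael; Dazl, an RNA-binding protein of germ cells, fell from 9.17, 13.7 and 13.4 FPKM to 2.4, 2.09 and 2.31 FPKM (log2 change -1.98 ± 0.23 (SE), adjusted p = 0.0106). Mael, a piRNA pathway gene, was 5.99, 14.1 and 6.94 FPKM in 2i/L and 9.51, 37.9 and 24.3 FPKM after the switch (log2 change 1.21 ± 0.26 (SE), adjusted p = 0.0487), with overlap between the groups although each line rose.

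Naive pluripotency factors were mixed. Of 16 tested, 3 were called lower (18.8%), 0 higher, and the list's median was -0.046. Nanog fell from 248, 467 and 232 FPKM to 180, 195 and 110 FPKM (log2 change -0.93 ± 0.2 (SE), adjusted p = 0.0483), and the call was lost with median centring. Prdm14, which represses Dnmt3b and fibroblast growth factor signalling, fell from 23.5, 39.5 and 23.4 FPKM to 9.54, 11.3 and 9.43 FPKM (log2 change -1.39 ± 0.21 (SE), adjusted p = 0.0203). Pecam1, a surface marker of naive cells, went from 16, 15 and 18.4 FPKM to 4.68, 3.38 and 4.93 FPKM (log2 change -1.72 ± 0.2 (SE), adjusted p = 0.0113). The core factor Pou5f1 (Oct4) was 60.4, 168 and 121 FPKM and 68.9, 84.8 and 59.6 FPKM (adjusted p = 0.228), up slightly in 2i-14 and lower in both DMR-deleted lines. Sox2 was 19.6, 13.3 and 22 FPKM and 15.9, 22.1 and 10.7 FPKM, and Zfp42 (Rex1) 99.7, 82.3 and 81.5 FPKM and 93, 80.6 and 92.6 FPKM (adjusted p = 0.759 and 0.959). Of 8 general and formative genes 0 were called by limma (1 higher and 1 lower at an unadjusted p under 0.05). Pou5f1 and Utf1 were the most abundant, and Utf1 averaged 131 ± 58 FPKM in 2i/L and 184 ± 66.2 FPKM after the switch. Of 5 primitive endoderm genes tested 2 were called lower, Sparc, a matrix protein, from 149, 102 and 98 FPKM to 54, 46.9 and 48.2 FPKM (log2 change -1.19 ± 0.18 (SE), adjusted p = 0.0204) and Srgn, serglycin, from 3.53, 2.63 and 3.94 FPKM to 0, 0.368 and 0.319 FPKM (log2 change -1.83 ± 0.21 (SE), adjusted p = 0.0111). Of 15 LIF-STAT3 genes 1 was called lower, Bcl3, from 9.11, 17.9 and 13.9 FPKM to 4.65, 8.2 and 5.61 FPKM (log2 change -1.02 ± 0.2 (SE), adjusted p = 0.0391). Klf4 and Socs2, direct STAT3 targets, averaged 23.4 ± 1.9 FPKM in 2i/L and 30.3 ± 7.66 FPKM after the switch for the first and 18.8 ± 7.23 FPKM in 2i/L and 35.2 ± 11 FPKM after the switch for the second. Of 21 p53 targets 2 were called lower: Phlda3 from 32.1, 25.9 and 28.1 FPKM to 12.5, 16.5 and 9.34 FPKM and Trp53 itself from 180, 30.2 and 33.2 FPKM to 118, 13.9 and 11.1 FPKM (adjusted p = 0.0445 and 0.0479), both lost with median centring. Trp53 was higher in 2i-14 than in both DMR-deleted lines in either medium.

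Among the lists that lay higher, ATF4 targets moved most. Of 28 genes of the amino acid response and serine synthesis tested, 4 were called higher (14.3%), 1 lower (3.57%) and 16 were higher in all 3 pairs, with a median of 0.59. Nupr1, a stress-induced chromatin cofactor at chr7:133766763-133770524 (mm9), rose from 99.3, 151 and 277 FPKM to 658, 1270 and 1670 FPKM (log2 change 2.79 ± 0.16 (SE), adjusted p = 0.00196). Ddit3 (CHOP) rose from 26, 27.1 and 53.1 FPKM to 110, 187 and 379 FPKM (log2 change 2.53 ± 0.22 (SE), adjusted p = 0.00523). For both the order of the lines was kept, 2i-14 lowest and 2i-O48-TKO highest in both media. Psph, the last enzyme of serine synthesis, rose from 88.4, 74.9 and 97.2 FPKM to 242, 231 and 202 FPKM (log2 change 1.37 ± 0.18 (SE), adjusted p = 0.0151). Gpt2, the mitochondrial alanine aminotransferase, went from 7.11, 10.1 and 11.6 FPKM to 17.6, 16.7 and 27.3 FPKM (log2 change 1.01 ± 0.21 (SE), adjusted p = 0.0453). Asns, asparagine synthetase and itself a classic ATF4 target, went the other way, from 1450, 1250 and 1300 FPKM to 1030, 828 and 832 FPKM (log2 change -0.58 ± 0.13 (SE), adjusted p = 0.0499), and lost its call with median centring, under which 7 genes of the list were called higher. The list lay above all genes by 0.84 in 2i-14, by 0.31 in the 2i-O48 pair and by 0.48 in the 2i-O48-TKO pair.

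The C/EBP-ATF element TTGCATCA, the composite site ATF4 binds with C/EBP partners, was searched on both strands of the same RefSeq promoters. It was found for 5 of the 23 ATF4 genes with a promoter in the table (21.7%), 1 of them among the 4 called higher, against 1.03% of 27025 genes. The list was made up largely of known ATF4 response genes, so a raised share follows from how it was chosen. It would be the same without the switch and is no support for a part of ATF4 in it. Windows around 4 of the 5 matches, those that end before the gene's start, are shown with the element in capitals on the gene's own strand, 5′ to 3′; in Pycr1 it reads in the opposite direction as TGATGCAA. Their positions are chr7:126625548-126625605 (minus strand) for Nupr1, chr1:191183411-191183468 (minus) for Atf3, chr2:119351024-119351081 (plus) for Chac1 and chr11:120643819-120643876 (minus) for Pycr1.
Nupr1: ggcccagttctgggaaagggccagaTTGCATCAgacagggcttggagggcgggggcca
Atf3: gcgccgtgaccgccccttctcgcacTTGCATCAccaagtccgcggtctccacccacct
Chac1: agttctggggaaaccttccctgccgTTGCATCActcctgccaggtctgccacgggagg
Pycr1: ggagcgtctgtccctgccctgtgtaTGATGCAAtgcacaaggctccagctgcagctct
Of these 4 genes Nupr1 was called; Atf3, Chac1 and Pycr1 were shown for the element, with log2 changes of 1.87, 1.36 and 0.29 that missed the threshold.

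Of 53 nuclear-encoded subunits of the respiratory chain tested, 5 were called higher (9.43%), 0 lower and 29 were higher in all 3 pairs against 6 lower, with a median of 0.28. Ndufa4 rose from 2380, 1570 and 1800 FPKM to 3230, 3340 and 3260 FPKM (log2 change 0.8 ± 0.15 (SE), adjusted p = 0.0369). Ndufs4, an accessory subunit of complex I, went from 193, 133 and 160 FPKM to 293, 270 and 277 FPKM (log2 change 0.8 ± 0.16 (SE), adjusted p = 0.0425). Ndufb3 and Ndufb9, complex I subunits of the membrane arm, rose from 528, 474 and 494 FPKM to 826, 814 and 732 FPKM (log2 change 0.66 ± 0.14 (SE), adjusted p = 0.0431) and from 1380, 1110 and 1160 FPKM to 1840, 1760 and 1910 FPKM (log2 change 0.6 ± 0.13 (SE), adjusted p = 0.0483). Uqcrq, a subunit of complex III, rose from 1410, 1780 and 1800 FPKM to 2090, 2750 and 2700 FPKM (log2 change 0.59 ± 0.12 (SE), adjusted p = 0.0374). No switched library of these 5 genes fell within the range of the 5 libraries in 2i/L, as for 85.7% of all genes called higher. With median centring 4 kept their calls, Ndufb9 being the exception. Sdha, Cycs, Atp5b, Atp5d and Atp5g1, chosen after their values were seen, were lower in all 3 pairs, with log2 changes of -0.12 to -0.52 and none called. Of 77 mitochondrial ribosomal proteins, grouped after their values were seen, 2 were called higher, Mrpl1 and Mrpl24, and 26 were higher in all 3 pairs against 7 lower (median 0.13). The count of calls is near the 2.22% of all genes tested that were called higher. None of 68 cytosolic ribosomal proteins was called by limma (4 lower at an unadjusted p under 0.05). Rpl41 averaged 4700 ± 305 FPKM in 2i/L and 5080 ± 712 FPKM after the switch.

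Imprinted genes are expressed from 1 parental copy. Of 36 listed, 19 passed the level filter; 4 of these were called higher (21.1%) and 1 lower (5.26%), 10 were higher in all 3 pairs, and the median was 0.4. Phlda2 and Slc22a18 are maternally expressed neighbours in the Kcnq1 domain, at chr7:150687450-150688446 and chr7:150659626-150685239 (mm9). Slc22a18, a transporter, rose from 0.154, 0 and 1.03 FPKM to 3.92, 6.6 and 3.85 FPKM (log2 change 2.09 ± 0.32 (SE), adjusted p = 0.0203), beside the rise of Phlda2 given above. Grb10, an adaptor that limits insulin and growth factor signalling, rose from 0.272, 0.385 and 0.62 FPKM to 3.07, 3.27 and 2.21 FPKM (log2 change 1.43 ± 0.21 (SE), adjusted p = 0.0187). Snrpn, the paternally expressed splicing protein of the Prader-Willi region, rose from 205, 167 and 171 FPKM to 424, 323 and 271 FPKM (log2 change 0.89 ± 0.16 (SE), adjusted p = 0.0323). All 4 risers stood above all 5 libraries in 2i/L, as did 85.7% of all genes called higher. Plagl1 (Zac1), a zinc finger factor, fell from 14.8, 15.6 and 11 FPKM to 2.42, 7.13 and 5.38 FPKM (log2 change -1.38 ± 0.3 (SE), adjusted p = 0.0487), a call lost with median centring. Genes of the H19-Igf2 and Dlk1-Dio3 clusters, whose control regions were deleted in 2i-O48 and 2i-O48-TKO, were mostly near the limit of detection. Igf2 was 0, 0.772 and 0.014 FPKM and 0.0537, 0.0568 and 0.0314 FPKM. Meg3 was 1.91, 0.132 and 0.164 FPKM and 22.7, 0.0427 and 0.024 FPKM, so it was high in the wild-type line alone and highest there after the switch.

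Writers and keepers of DNA methylation gave no calls. None of 13 genes was called by limma (2 higher and 1 lower at an unadjusted p under 0.05) and the list's median was -0.17. Dnmt1, the maintenance enzyme, was 10.6, 8.42 and 12.5 FPKM and 9.31, 8.29 and 11.7 FPKM, and its partner Uhrf1 20.5, 24.4 and 28.1 FPKM and 19.5, 23.1 and 21.4 FPKM. The de novo enzyme Dnmt3a was 1.05, 1.52 and 1.48 FPKM and 0.958, 1.11 and 1.07 FPKM, Dnmt3b 6.4, 11.9 and 5.82 FPKM and 10.4, 6.3 and 7.18 FPKM, and their cofactor Dnmt3l 27.1, 49.7 and 61 FPKM and 31, 46.3 and 21.4 FPKM. Zfp57, which guards imprints, was 40.8, 58.6 and 32.9 FPKM and 69.1, 69.8 and 46 FPKM (adjusted p = 0.17), and Trim28, its corepressor, and Hells, a remodelling ATPase, averaged 144 ± 75.9 FPKM in 2i/L and 90.6 ± 15.1 FPKM after the switch for the first and 76.9 ± 10 FPKM in 2i/L and 54.6 ± 5.8 FPKM after the switch for the second. The levels of Dnmt1, Uhrf1, Dnmt3a, Dnmt3b and Dnmt3l overlapped between the media. None of 23 Polycomb genes was called by limma (2 higher and 3 lower at an unadjusted p under 0.05). Rbbp7 and Eed averaged 683 ± 43.4 FPKM in 2i/L and 694 ± 230 FPKM after the switch for the first and 147 ± 34.6 FPKM in 2i/L and 236 ± 52.2 FPKM after the switch for the second.

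The MEK inhibitor was present in 2i/L and absent from SF/a2i/L. Of 17 ERK feedback and immediate target genes tested, 3 were called higher (17.6%), 1 lower (5.88%) and 6 were higher in all 3 pairs; the list's median was 0.14. Dusp6, a phosphatase of ERK, went from 1.53, 3.26 and 1.14 FPKM to 18.6, 9.76 and 4.74 FPKM (log2 change 1.9 ± 0.35 (SE), adjusted p = 0.0331). Spry4, a receptor signalling inhibitor, went from 0.0218, 0.979 and 0.0111 FPKM to 4.77, 2.59 and 1.26 FPKM (log2 change 1.5 ± 0.33 (SE), adjusted p = 0.0483). Etv4, an Ets factor, went from 0.503, 2.94 and 0.327 FPKM to 3.17, 4.6 and 2.54 FPKM (log2 change 1.13 ± 0.25 (SE), adjusted p = 0.0494). In all 3 genes 2i-O48 was the highest line in 2i/L and 2i-O48-TKO the lowest after the switch, and Etv4 levels overlapped between the media. Epha4, an ephrin receptor, fell from 4.59, 3.27 and 2.4 FPKM to 0.257, 0.152 and 0.222 FPKM (log2 change -1.84 ± 0.2 (SE), adjusted p = 0.0103).

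Smaller lists held single or paired changes. In the longer of them 1 call is near the 2.22% higher and 4.66% lower of all genes tested. Such a call is not a result about the list. Of 7 retinoid response genes 2 were called higher, both cytoplasmic retinoic acid binding proteins. Crabp1 went from 15.8, 6.28 and 22 FPKM to 30.3, 67.9 and 104 FPKM (log2 change 2.11 ± 0.42 (SE), adjusted p = 0.0391). Crabp2 went from 3.82, 5.43 and 12.2 FPKM to 17, 17.7 and 27.6 FPKM (log2 change 1.52 ± 0.23 (SE), adjusted p = 0.0203). Of 15 Nodal and BMP genes 1 rose, Bmp4, and 1 fell: Nodal, the ligand that activates Smad2 and Smad3, from 31.8, 26.3 and 26.4 FPKM to 10, 15.3 and 7.49 FPKM (log2 change -1.34 ± 0.25 (SE), adjusted p = 0.0348), a call lost with median centring. Of 7 glucocorticoid and thyroid response genes 1 was called higher, Tsc22d3 (GILZ), from 4.19, 3.66 and 9.8 FPKM to 13.3, 8.09 and 21.2 FPKM (log2 change 1.15 ± 0.21 (SE), adjusted p = 0.0333), with overlap between the groups. Sgk1 and Dusp1 averaged 219 ± 92.2 FPKM in 2i/L and 135 ± 49.7 FPKM after the switch for the first and 86.6 ± 40.3 FPKM in 2i/L and 63.9 ± 11.2 FPKM after the switch for the second. Of 9 FoxO and insulin genes 1 was called lower, Igfbp2, which binds insulin-like growth factors, from 629, 274 and 702 FPKM to 211, 141 and 168 FPKM (log2 change -1.53 ± 0.23 (SE), adjusted p = 0.0201), while Arrdc4 averaged 71.4 ± 3.96 FPKM in 2i/L and 121 ± 25.6 FPKM after the switch. Of 25 lysosome and autophagy genes 1 was called higher, Ctsz, a cathepsin, from 63.8, 42.4 and 57.4 FPKM to 92.4, 102 and 117 FPKM (log2 change 0.93 ± 0.2 (SE), adjusted p = 0.0498). Ctsl and Map1lc3b averaged 448 ± 47.5 FPKM in 2i/L and 369 ± 16.2 FPKM after the switch for the first and 199 ± 18 FPKM in 2i/L and 227 ± 29 FPKM after the switch for the second. Of 24 ribosome biogenesis genes 1 was called lower, Nop2, an rRNA methyltransferase, from 36.5, 51.5 and 41.1 FPKM to 22.9, 20.2 and 21.4 FPKM (log2 change -0.96 ± 0.21 (SE), adjusted p = 0.0498), a call lost with median centring. Npm1 and Nhp2 averaged 972 ± 89.5 FPKM in 2i/L and 839 ± 78.5 FPKM after the switch for the first and 747 ± 126 FPKM in 2i/L and 801 ± 83.3 FPKM after the switch for the second. Of the fibroblast list 1 gene passed the level filter, Fstl1, which rose from 6.8, 2.54 and 2.79 FPKM to 12, 9.5 and 7.43 FPKM (log2 change 1.15 ± 0.24 (SE), adjusted p = 0.0423), while 2i-14 held 12.1 and 21.3 FPKM at passages 18 and 39 in 2i/L. Among 7 apolipoproteins tested, grouped after their values were seen, 3 were called higher: Apoe, the lipid carrier, from 1060, 534 and 978 FPKM to 3360, 1630 and 2680 FPKM (log2 change 1.58 ± 0.13 (SE), adjusted p = 0.00456), Apoa2 and Apoc2. Apoe stood at 1760 FPKM in 2i-14 at passage 18 in 2i/L, above switched 2i-O48. Apoc2 levels overlapped between the media.

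Lists with no gene called by limma, beyond those already given, were the following, with counts at an unadjusted p under 0.05 in place of calls. Of 28 constitutive proteasome subunits 13 were higher in all 3 pairs against 4 lower, and 6 were higher and 2 lower at that p. Psma2 and Psmb2 averaged 1520 ± 189 FPKM in 2i/L and 1810 ± 112 FPKM after the switch for the first and 1420 ± 158 FPKM in 2i/L and 1950 ± 103 FPKM after the switch for the second. Of 27 translation factors and tRNA synthetases 9 were lower in all 3 pairs against 1 higher, and 6 were lower at that p. Eef1a1 and Eif2s2 averaged 1220 ± 128 FPKM in 2i/L and 1090 ± 46.4 FPKM after the switch for the first and 449 ± 6.73 FPKM in 2i/L and 309 ± 63 FPKM after the switch for the second. Among 10 trophoblast genes 6 were lower in all 3 pairs and 3 at that p. The list's median change minus that of all genes was -0.14, -1.2 and -0.2 in the 3 pairs, furthest from 0 in 2i-O48. The most abundant were 2 Rhox genes, Rhox6 at 26.7, 200 and 55.5 FPKM and 24.5, 41.5 and 51.8 FPKM and Rhox9 at 24.8, 103 and 48.2 FPKM and 9.42, 29.4 and 37.6 FPKM, with 2i-O48 in 2i/L the highest library. Of 5 Wnt and beta-catenin targets, read out under the same dose of CHIR99021 in both media, 1 was higher and 1 lower at that p. Ccnd1 and Tcf7 averaged 10.2 ± 8.18 FPKM in 2i/L and 18.1 ± 5.03 FPKM after the switch for the first and 3.06 ± 0.445 FPKM in 2i/L and 2.42 ± 0.494 FPKM after the switch for the second. Of 6 microRNA processing genes 0 passed that p. Drosha and Tarbp2 averaged 12.9 ± 1.06 FPKM in 2i/L and 9.81 ± 1.13 FPKM after the switch for the first and 22 ± 9.31 FPKM in 2i/L and 16.8 ± 1.19 FPKM after the switch for the second. Mesendoderm and 2-cell stage lists had 1 gene tested each, and Gsc was lower at that p. Gsc averaged 1.42 ± 0.663 FPKM in 2i/L and 0.451 ± 0.417 FPKM after the switch. Eif1a, of the 2-cell stage list, averaged 150 ± 19.1 FPKM in 2i/L and 163 ± 45.1 FPKM after the switch. Zscan4c and Zscan4f of that list, chosen after their values were seen, missed the level filter and were not tested. Zscan4c was 30.1, 0.0227 and 13.2 FPKM in 2i/L and 0.046, 0.0972 and 0 FPKM after the switch. Zscan4f was 44.5, 0.147 and 17.3 FPKM and 0.0831, 0.0391 and 0 FPKM. In 2i-14 at passage 39 in 2i/L they stood at 0.278 and 0.679 FPKM. The neuroectoderm gene Gbx2 averaged 1.1 ± 0.846 FPKM in 2i/L and 2.22 ± 1.2 FPKM after the switch. Actb, a reference gene, was 950, 868 and 766 FPKM in 2i/L and 636, 776 and 629 FPKM after the switch (adjusted p = 0.207).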

How the data were processed

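RNA-seq libraries had been made from 500 to 1000 haploid cells by full-length cDNA amplification; the authors mapped reads to mm9 and gave one FPKM value per gene with Cufflinks, and these deposited FPKM values were used as they stand. The submitters' processing notes name TopHat2 2.0.11 and Cufflinks 2.2.1; the gene annotation is not given in the sources used here. Rows of a symbol were summed, and genes at 1 FPKM or more in at least 3 of the 6 libraries were kept (9759 of 24028 symbols). Values were taken as log2(FPKM + 1) and fitted in limma 3.58.1 (R 4.3.3; moderated with a mean trend, two-sided) with medium and line as terms; genes at a Benjamini-Hochberg adjusted p under 0.05 over all genes tested were called. The steps were tested on simulated data. Tables and figures used Python 3.11.15, numpy 2.4.6, pandas 2.3.3 and matplotlib 3.10.9.

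Libraries were paired by cell line, as the labels name it; same-line deviations from the group means correlated at 0.17, -0.14 and 0.36. Implied depth was read from low FPKM steps, of which 74.5% to 81.7% lay within 0.1 of a whole fragment, with a length offset of 275 bases. It is an estimate, and counting limits cover counting error only. Amplification from few cells adds error that 1 library per line and medium does not measure.

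Named genes were the 15 largest rises and 15 largest falls among called genes outside the interferon list and unnamed loci, up to 5 called members of each list in each direction (with fewer than 2 called, the 2 most abundant members as levels), 15 genes chosen by name, and the 5 genes in each direction that differed most between the wild-type and both DMR-deleted pairs. The members and the 46 lists were chosen with earlier results of these data known. A few genes that the rule names are not reported here. Gene positions are from GENCODE release M1 (mm9) and promoters from RefSeq (GRCm38.p6). Alternatives were another pseudocount, filters, scaling, controls and line terms, and leaving out each line.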

Additional observations from a re-analysis of the deposited data

Results flagged for a closer look

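For 12 of the named genes the wild-type line moved one way and both DMR-deleted lines the opposite way. The difference was not tested, since the wild-type state is 1 line, and the genes were picked for it or named for other reasons. Of 9107 genes tested, leaving out the interferon list and unnamed or small RNA loci, 1317 (14.5%) were higher in the wild-type pair and lower in both others and 512 (5.62%) the reverse, 20.1% in all. Log2 changes are given for the wild-type line first, then 2i-O48, then 2i-O48-TKO.

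Among genes higher in the wild-type pair, Utf1, a chromatin factor of pluripotent cells, changed by 1.79, -0.16 and -0.058. Pou5f1 changed by 0.19, -0.98 and -1.0. Dnmt3l changed by 0.19, -0.1 and -1.47. Khdc3, an oocyte and stem cell protein, changed by 0.4, -3.17 and -1.47. Ly6a (Sca-1) changed by 0.79, -1.01 and -2.9. Pdss2, of coenzyme Q synthesis, changed by 1.07, -1.56 and -0.55. Abo, the blood group glycosyltransferase, changed by 1.42, -1.91 and -0.57.

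Among genes lower in the wild-type pair, Tmem213 changed by -0.8, 2.71 and 1.36. Syce3, of the synaptonemal complex, changed by -0.91, 1.68 and 1.36. Spink2, a protease inhibitor, changed by -1.56, 1.22 and 0.65. Fam25c changed by -0.92, 1.03 and 1.3. Rmrp, the RNA of RNase MRP, changed by -1.09, 1.8 and 1.05.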

How the results depend on the processing

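All 217 higher and 455 lower genes kept their sign under both median centring and quantile normalization. With a line left out or a pseudocount of 0.1 no sign could turn, since each gene moved the same way in all 3 pairs. Calls numbered 137 higher and 232 lower with a mean FPKM of at least 5, and 386 higher with median centring. They numbered 525 and 980 when the 3 passages of 2i-14 served together as its control, 537 and 985 with passage 39 alone and 473 and 1010 with passage 18 alone. Without a filter on low FPKM limma called 0 higher and 0 lower of 18837 genes (smallest adjusted p = 0.143), with 1150 higher and 2056 lower at an unadjusted p under 0.05. Leaving out each line gave 112 to 555 higher and 199 to 906 lower, fewest without 2i-O48-TKO, when 51 of 101 called named genes lost their call. Without the replicate block, which paired libraries by line, calls were 274 and 504, of which 187 and 380 were among those reported.

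Genes past 1 on the log2 scale in each pair numbered 314 lower with a pseudocount of 0.1, and 137 to 175 higher and 279 to 324 lower with each line left out. With median centring the switched libraries stood apart for 1543 higher and 910 lower genes. These checks of both measures were chosen after seeing the data.

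Log2 changes that turned sign included Dnmt1 (0.075 with median centring and 0.065 with quantile normalization), Mgst1 (-0.061) and S100a4 (-0.66) with passage 39 as control, Zfp42 (-0.019 with all passages, -0.14 with passage 18) and Dnmt3b (-0.054 with all passages, -0.14 with passage 39, -0.19 with passage 18). With each line left out, Abo ranged from -1.24 to 0.43, Dnmt3b from -0.28 to 0.44, Dnmt3l from -0.78 to 0.042, Pdss2 from -1.06 to 0.26, Rmrp from -0.021 to 1.42, Sox2 from -0.63 to 0.21, Spink2 from -0.46 to 0.94, Utf1 from -0.11 to 0.87 and Zfp42 from -0.064 to 0.077. Median centring also turned small falls of genes given as averages, such as Hsp90b1 (0.056), Epcam (0.067), Eef1a1 (0.016), Fn1 (0.074) and Rbbp7 (0.14). The cause was not tested. Of the list medians recomputed, 490 moved by less than the spread between pairs and 60 by more. At this depth changes of genes under about 0.2 FPKM were not detectable.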
